A study of Mus musculus with 6 samples.

Results

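Expression of Plau and of 9 major urinary protein genes (Mup1, Mup3, Mup4, Mup5, Mup6, Mup7, Mup11, Mup20 and Mup21) was measured in liver tumors of CMRtdT mice. The 10 genes were chosen by name, because the MUP-uPA transgene of these mice joins a Mup promoter to urokinase, the product of Plau. They are 10 of 35683 genes in the transcript tables, and near-identical Mup copies share reads, so the value of a single copy depends on how the quantification divided those reads. All 6 samples were of 1 condition, 3 tumors from each of 2 mice, named mouse 1 and mouse 2 here, and no normal liver or transgene-free tumor was analysed here. Every mouse carried the Ctnnb1 ex3 allele in heterozygous form, the MUP-uPA transgene and the R26 tdT reporter, was male and was kept on a C57BL/6 background. Feeding with a high-fat diet (HFD) began at 6 weeks of age, AAV8-TBG-Cre, a virus that expresses Cre from a hepatocyte promoter, was injected into the tail vein at 8 weeks, and tumors were taken 6.5 months after it. The tumors are named M1T1, M1T2 and M1T3 for mouse 1 and M2T1, M2T2 and M2T3 for mouse 2. Tumors of 1 mouse share an animal, so a difference between the mice compares 2 animals.

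Major urinary proteins are small secreted lipocalins that the male mouse liver makes in large amounts, and that carry volatile odorants into the urine. Growth hormone, acting through its receptor and STAT5B, drives most Mup genes, which stand as a cluster of tandem copies and pseudogenes. Plau encodes urokinase (uPA), the serine protease that turns plasminogen into plasmin. In MUP-uPA mice hepatocytes make urokinase, which damages them and leads to chronic liver disease.

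The tables hold 22 numbered Mup genes and 26 Mup pseudogenes. The Mup cluster spans chr4:59956804-62150841 (GRCm38), and Plau lies at chr14:20836662-20843388. To show how alike the copies are, the same 60 bases of the coding sequence, bases 215 to 274 of Mup20, are given below for the members and for Mup22, which took the second largest amount of the family's reads. They are from GENCODE vM39 transcripts, and capitals mark bases that differ from Mup20.
Mup20: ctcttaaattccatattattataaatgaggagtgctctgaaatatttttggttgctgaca
Mup22: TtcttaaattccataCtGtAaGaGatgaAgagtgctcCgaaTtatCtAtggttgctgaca
Mup11: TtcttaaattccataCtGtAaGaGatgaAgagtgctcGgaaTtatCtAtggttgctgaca
Mup7: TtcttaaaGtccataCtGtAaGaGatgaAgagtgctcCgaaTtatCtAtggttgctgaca
Mup1: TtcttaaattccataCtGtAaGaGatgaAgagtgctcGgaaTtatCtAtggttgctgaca
Mup4: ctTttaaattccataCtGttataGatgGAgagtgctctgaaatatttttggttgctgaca
Mup5: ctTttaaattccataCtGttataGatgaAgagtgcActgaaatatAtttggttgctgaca
Mup6: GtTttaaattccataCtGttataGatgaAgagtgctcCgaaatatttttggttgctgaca
Mup21: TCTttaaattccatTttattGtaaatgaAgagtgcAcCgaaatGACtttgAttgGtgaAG
Mup3: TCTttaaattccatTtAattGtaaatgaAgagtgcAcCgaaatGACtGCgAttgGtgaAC
Over the whole coding sequence, Mup3 matched Mup20 at 86.7% of aligned positions and Mup21 at 87.5%, and the other Mup members matched it at 89.7 to 91.4%. Mup11 and Mup22 differed from each other at 2 positions only, with 99.6% identity. Within the window printed above, Mup1 and Mup11 are the same sequence.

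How far a read can be given to 1 gene was described by the share of a transcript's 31-base words that no other gene's transcript in the tables contains. For Plau this share was 99.2%. For Mup20 it was 38.1%, and for the Mup3 transcripts it was 67.0 and 68.6%, so that reads of both genes can carry sequence of their own. Mup21 (73.4%), Mup5 (64.0%), Mup4 (62.0%) and Mup6 (71.0 to 82.7% over its transcripts) were also well set apart. Mup7 (3.93 to 7.07%) and the Mup11 transcript with the most reads (10.3%) were not, and neither was Mup22 (3.53%). With 100-base words the shares rose to 61.2% for Mup20, to 97.1% for the more abundant Mup3 transcript and to 20.2% for Mup11. Values of Mup7, Mup11 and Mup1 are therefore uncertain as values of single genes.

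**Figure D1:**
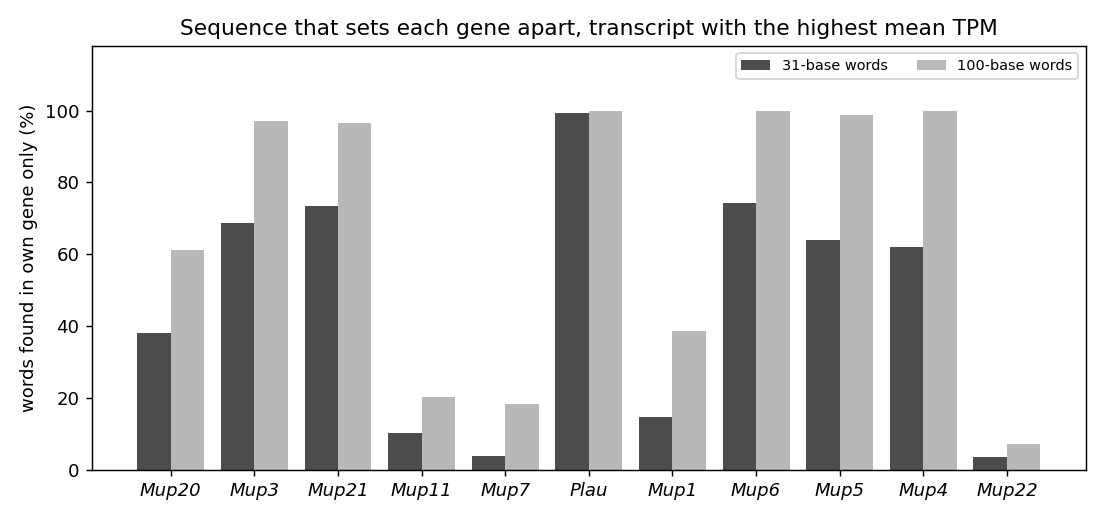
Share of 31-base words (dark bars) and 100-base words (light bars) of each gene's most abundant transcript that occur in no other gene, in percent, for the 10 genes and Mup22. Plau reaches 99.2% and 100%, Mup20 38.1% and 61.2%, and Mup7 and Mup22 stay at 3.93% and 3.53% of 31-base words.

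Promoter sequence of 6 Mup members was in the RefSeq table (GRCm38.p6), and that of Mup3, Mup21, Mup4 and Mup6 is printed because the motifs of these genes lie within the 120 bases before the annotated start. Capitals mark TATAAA or TATATAA.
Mup3, chr4:62087318-62087437, minus strand: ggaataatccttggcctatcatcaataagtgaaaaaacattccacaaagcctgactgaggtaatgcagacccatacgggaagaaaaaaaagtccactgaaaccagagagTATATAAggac
Mup21, chr4:62150842-62150961, minus strand: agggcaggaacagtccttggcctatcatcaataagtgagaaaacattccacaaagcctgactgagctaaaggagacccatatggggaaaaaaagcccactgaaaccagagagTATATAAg
Mup4, chr4:59960668-59960787, minus strand: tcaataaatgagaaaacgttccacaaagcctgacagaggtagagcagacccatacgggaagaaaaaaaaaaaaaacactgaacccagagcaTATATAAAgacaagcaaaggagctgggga
Mup6, chr4:60003361-60003480, plus strand: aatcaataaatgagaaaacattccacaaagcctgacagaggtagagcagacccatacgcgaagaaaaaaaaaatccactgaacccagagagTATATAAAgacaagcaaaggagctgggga
The TATA box TATAAA, searched on both strands from 250 bases before the start to 50 after it, was in Mup4 and Mup6 alone among 14 Mup promoters, against 13.6% of all 32851 promoters. TATATAA, which overlaps TATAAA and was added after these promoters had been read, was in 13 of the 14 and in 5 of the 6 members. It was in 3.24% of all promoters. Because it was picked from these promoters, which belong to tandem copies, its count among them is no test of enrichment. Neither the STAT5 motif TTCNNNGAA (8.30% of all promoters) nor the TCF motif CTTTGA (16.0%) was in any of the 14. No match says only that these letters are not in this window, and the sources used here do not say which Mup promoter the transgene carries.

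Each tumor had between 19130532 and 27681766 estimated counts, and 0.373 to 0.680% of them were on transcripts without a gene name. Mitochondrial genes took 6.85 to 8.34% of counts in mouse 1 and 12.9 to 18.4% in mouse 2. M1T1 stood apart from the others. Its 10 hepatocyte markers, among them Alb, which encodes serum albumin, summed to 2097 TPM (the tables' level of a transcript, corrected for its length and for library size) against 42144 to 69855 TPM in the other 5 tumors, and all 10 were lowest in it. Its macrophage markers were also lowest, 8 of 8, with a sum of 95.3 TPM against 171 to 616 TPM. Its cholangiocyte sum was the highest (44.2 against 4.61 to 36.3 TPM), with 4 of 5 markers highest in it. Spp1 alone gave 33.0 TPM of that sum, against 1.40 to 30.4 TPM elsewhere. The marker that was not highest, Sox9, had 0.715 TPM in M1T1 and 0.106 to 3.27 TPM elsewhere. The stellate and fibroblast sum of M1T1 was 90.5 TPM, against 24.0 to 87.7 TPM in the others. However, only 2 of those 8 markers were highest in M1T1, and Acta2 alone gave 50.05 TPM of the sum, against at most 4.56 TPM elsewhere. Its endothelial (15.6 against 32.6 to 77.5 TPM), neutrophil (1.74 against 10.4 to 24.4 TPM), B cell (1.14 against 2.21 to 4.94 TPM) and T cell sums (0.949 against 1.79 to 9.34 TPM) were the lowest, with 3 of 6 T cell markers at 0. No defining marker of hepatocytes or macrophages was at 0 in any tumor. The part of these differences in the results on the Mup genes and Plau was not tested, and values are given with and without this tumor.

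Mup20 was by far the most abundant member. It encodes darcin, the urinary protein of males that attracts females. Its level was 488 TPM in M1T1, 6977 TPM in M1T2 and 6938 TPM in M1T3, and 272, 1290.1 and 941 TPM in M2T1, M2T2 and M2T3. M1T2 and M1T3 were far above the rest, M1T1 and M2T1 were each lowest in their mouse, and the mice overlapped because M1T1 lay below 2 tumors of mouse 2. Estimated counts behind these levels were 5814, 78194 and 91197 in mouse 1 and 3336, 14276 and 10585 in mouse 2, all on the 1 Mup20 transcript in the tables. The mean level was 2818 ± 3226 TPM (SD, n = 6 tumors), and 3284 ± 3374 TPM without M1T1. In M1T2 and M1T3 only 22 and 21 genes had a higher TPM than Mup20, against 390 in M2T1. In these bulk samples, fewer cells that make a transcript and less of it per cell cannot be told apart.

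**Figure D2:**
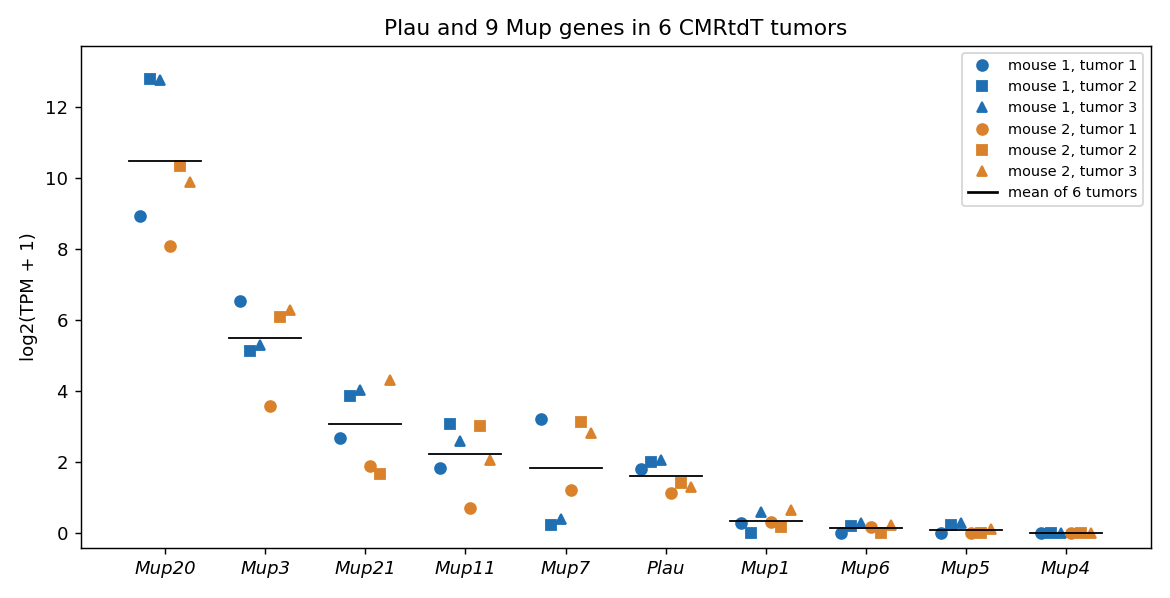
Level of each of the 10 genes as log2(TPM + 1) in each tumor (points, blue for mouse 1 and orange for mouse 2, 1 marker shape per tumor number), with the mean of 6 tumors as a black line. Mup20 spans 8.09 to 12.8 on this scale, Plau 1.15 to 2.07, and Mup1, Mup6, Mup5 and Mup4 lie near 0.

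The summed level of all 48 Mup genes and pseudogenes depends less on how reads were divided among copies than the level of any 1 copy, though copies of unequal length still weigh differently in TPM. It was 818, 8175 and 8187 TPM in mouse 1 and 344, 1754 and 1369 TPM in mouse 2, with a mean of 3441 ± 3703 TPM (SD, n = 6). The family took between 0.0344 and 0.819% of all TPM. Mup20 made up 59.6, 85.4 and 84.7% of the summed Mup TPM in M1T1 to M1T3 and 79.2, 73.5 and 68.8% in M2T1 to M2T3. It was the larger part in every tumor, with a mean share of 75.2% ± 9.97 (SD, n = 6). All Mup genes and pseudogenes other than Mup20 summed to 330, 1198 and 1250 TPM in mouse 1 and 71.6, 464 and 427 TPM in mouse 2, so M1T2 and M1T3 were highest and M2T1 lowest without Mup20 too. Mup22, which is no member and whose transcript could hardly be told from its neighbours, came next with 9.50 to 21.6%. Of the 13 numbered Mup genes outside the member list, 10 averaged 1 TPM or more, as did 1 of the 26 pseudogenes, Mup-ps16. The levels of these genes after Mup22 (433 TPM on average) were led by Mup14 (39.0 TPM), Mup19 (29.3 TPM) and Mup16 (23.3 TPM).

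**Figure D3:**
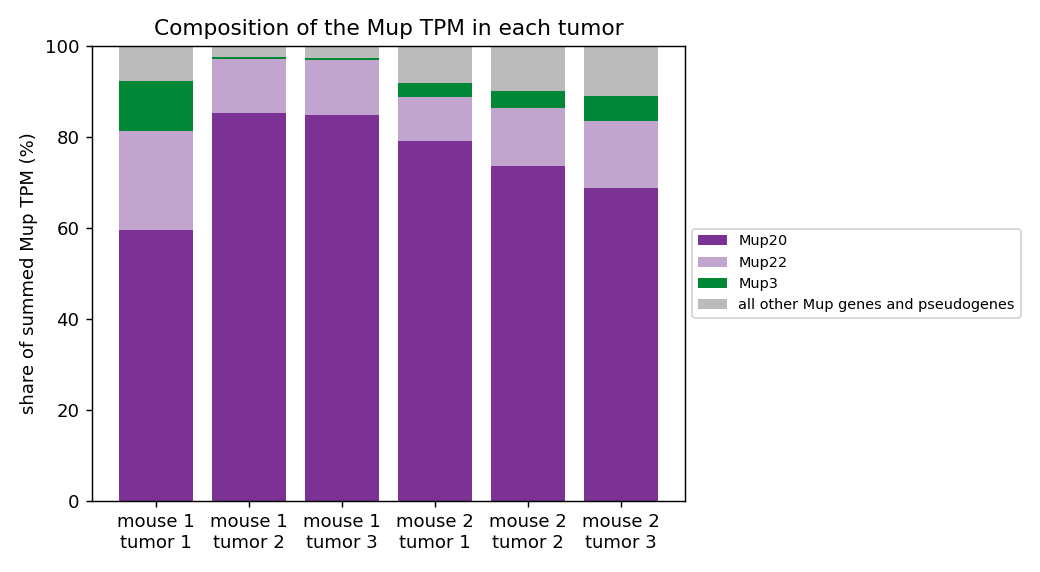
Share of the summed Mup TPM, in percent, taken by Mup20, Mup22, Mup3 and all other Mup genes and pseudogenes together in each of the 6 tumors (stacked bars from 0 to 100%). Mup20 takes from 59.6 to 85.4%, and Mup3 takes 11.1% in M1T1 and at most 5.59% in the others.

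Mup3 was the second most abundant member, and did not follow Mup20. Its level was 91.1, 34.3 and 38.2 TPM in mouse 1 and 10.9, 67.2 and 76.5 TPM in mouse 2. M1T1, with few hepatocyte transcripts, was highest, and M2T1 was lowest, so the mice overlapped. The mean was 53.0 ± 30.2 TPM (SD, n = 6), or 45.4 ± 26.5 TPM without M1T1. The Mup3 transcripts ENSMUST00000107472 and ENSMUST00000084531 had similar levels, 45.6 and 45.5 TPM in M1T1 and 6.49 and 4.41 TPM in M2T1. Within the Mup TPM, the share of Mup3 was 11.1, 0.419 and 0.467% in mouse 1 and 3.17, 3.83 and 5.59% in mouse 2, lowest in the tumors where Mup20 was highest. Mup20 is most of the total in this share, so a high Mup20 lowers the share of Mup3 by itself.

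Mup21, the copy at the end of the cluster, had 5.37, 13.5 and 15.2 TPM in mouse 1 and 2.75, 2.16 and 19.0 TPM in mouse 2. Both the lowest and the highest value were from mouse 2. Mup11 had 2.58, 7.43 and 5.11 TPM in mouse 1 and 0.656, 7.15 and 3.17 TPM in mouse 2, again with overlap. Its estimated reads were divided differently among its transcripts: ENSMUST00000084544 held 4.59 TPM in M1T2 and 0 TPM in M2T1 and M2T3, where ENSMUST00000098046 held all of it. Mup7 had 8.24, 0.172 and 0.319 TPM in mouse 1 and 1.31, 7.77 and 6.15 TPM in mouse 2. It was near 0 in M1T2 and M1T3, with 2.30 and 2.18 estimated counts, and these are the tumors with the most Mup20. In the other 4 tumors it held 16.0 to 97.9 estimated counts, nearly all on ENSMUST00000079697, of which 3.93% of 31-base words were its own.

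The remaining 4 Mup members were at or near the limit of detection. Mup1 reached at most 0.571 TPM, with 17.7 estimated counts over the 6 tumors. Mup6 reached 0.222 TPM with 7 counts in all, and Mup5 reached 0.229 TPM with 6. Mup5 and Mup6 hold mostly sequence of their own, whereas 14.7% of the 31-base words of the most abundant Mup1 transcript were its own. Mup4 had 0 counts in each tumor, and a count of 0 allows up to 3 counts per tumor as a one-sided limit (the two-sided exact Poisson interval, 95%, ends at 3.69). Such limits cover counting error only.

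Plau was low in every tumor. Its level was 2.50, 3.03 and 3.19 TPM in mouse 1 and 1.21, 1.69 and 1.46 TPM in mouse 2, with a mean of 2.18 ± 0.841 TPM (SD, n = 6), or 2.12 ± 0.924 TPM without M1T1. These levels rest on 93, 109 and 144 reads in mouse 1 and 52, 65 and 57 in mouse 2. For the lowest count, 52 reads, the exact Poisson interval (95%, counting error only) was 38.8 to 68.2 reads, and for the highest, 144 reads, it was 121 to 170. All Plau reads were on the coding transcript ENSMUST00000022368, and the other Plau transcript, marked for nonsense-mediated decay, had 0. The tables hold no separate entry for the transgene, and the sources used here do not say whether reads of the transgene fall on this transcript. The Plau level may therefore hold transgene reads or lack them, and transgene and endogenous Plau cannot be told apart. Between 9398 and 11543 genes were above Plau in TPM in each tumor.

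Plau TPM was higher in every tumor of mouse 1 than in every tumor of mouse 2. This was also so for 41.9% of the 12518 genes averaging 1 TPM or more, while 1.75% were higher throughout in mouse 2. Mitochondrial genes took more of the counts in mouse 2, and a larger mitochondrial share lowers the TPM of all other genes. With mitochondrial genes left out, Plau averaged 2.86 ± 0.879 TPM (SD), and the order of the mice on that scale is not given here. Of the 6 members averaging 1 TPM or more, Plau was the only 1 whose mice did not overlap. The exact two-sided permutation test of log2(TPM + 1) gave p = 0.1 for Plau (adjusted p = 0.4 over 4 such tests), the smallest p that 3 tumors against 3 allow. The exact permutation p was 0.3 for Mup20, 0.3 for the summed Mup TPM and 0.8 for Mup3. Plau varied less over the tumors than Mup20 and the summed Mup level did. Its highest and lowest levels were 0.92 apart in log2(TPM + 1), against 4.67 for Mup20 and 4.57 for the family. The median range over these 12518 genes was 1.91 over 6 tumors. Without M1T1 it was 0.839, below the range of Plau, which was still 0.92. At the low level of Plau the added 1 narrows its range, which was 1.33 with 0.1 added instead. The median over genes was not recomputed with 0.1. A range of at least 4 was found for 10.4% of those genes over 6 tumors and for 0.519% without M1T1, when the range of Mup20 was still 4.67 and that of Alb dropped from 4.56 to 0.99. With 1 added, genes low in every tumor cannot reach such a range, though they count among the 12518.

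Ordered by mean TPM, the members ran Mup20, Mup3, Mup21, Mup11, Mup7, Plau, Mup1, Mup6, Mup5 and Mup4. Mup20 was above Mup3, and Mup3 above Mup21, in 6 of 6 tumors. Mup21 was above Mup11 in 5 of 6. The neighbours Mup11 and Mup7 kept their order in 2 of 6 tumors and Mup7 and Plau in 4 of 6, so these orders did not hold throughout. Differences between genes were not tested. Plau was above Mup1 in 6 of 6 tumors, and the order of Mup6 and Mup5 held in 2 of 6.

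Relative to Alb in the same tumor, the Mup genes gave another order of tumors. Alb itself was 702, 16079 and 16603 TPM in mouse 1 and 8348, 8517 and 13112 TPM in mouse 2. Per 100 TPM of Alb, Mup20 stood at 69.5, 43.4 and 41.8 TPM in mouse 1 and 3.26, 15.1 and 7.18 TPM in mouse 2. On this scale M1T1, low in Alb, was highest, and every tumor of mouse 1 was above every tumor of mouse 2. Relative to Alb this was so for 6.73% of the 12517 other genes averaging 1 TPM or more, and the reverse for 1.98%. The summed Mup level per 100 TPM of Alb was 117, 50.8 and 49.3 TPM in mouse 1 and 4.12, 20.6 and 10.4 TPM in mouse 2. Mup3 per 100 TPM of Alb was 13.0 TPM in M1T1 and 0.131 to 0.789 TPM in the other 5. Plau per 100000 TPM of Alb was 356 TPM in M1T1 and 11.1 to 19.9 TPM in the others.

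**Figure D4:**
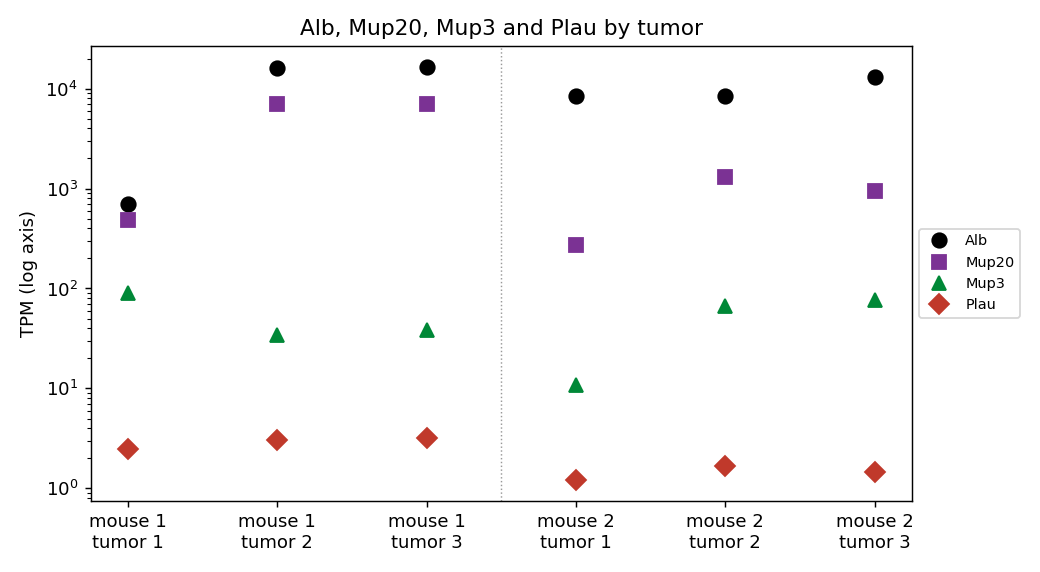
TPM of Alb, Mup20, Mup3 and Plau (points, log axis) in each of the 6 tumors, mouse 1 to the left of the dotted line and mouse 2 to the right. Alb drops to 702 TPM in M1T1, where Mup3 is highest (91.1 TPM), and Plau stays between 1.21 and 3.19 TPM.

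Counts were then compared between the mice across all genes. Of the 10 members, 6 passed the filter on low counts (Plau, Mup3, Mup7, Mup11, Mup20 and Mup21), and 0 of the 6 passed an adjusted p of 0.05 in edgeR's quasi-likelihood test, where 0% of all 13268 genes tested did. At an unadjusted p under 0.05 there were 1449 genes over the whole table and none of the 6. DESeq2 called 202 genes and limma-voom 0 (708 at an unadjusted p under 0.05), and no member was among them. Mup20 gave a log2 fold change of mouse 2 against mouse 1 of -2.05 in edgeR (SE 1.20, adjusted p = 0.583), and the summed Mup row gave -1.84 (SE 1.16, adjusted p = 0.608). All Mup rows other than Mup20, summed, gave -0.99 (SE 0.91, adjusted p = 0.719). Plau gave -0.31 (SE 0.45, adjusted p = 0.812). Mup3 gave 0.68 (SE 0.72, adjusted p = 0.752), the opposite sign to its difference in mean log2(TPM + 1), -0.34. That difference carries no TMM scaling and averages logs of TPM, while edgeR with library size alone still gave 0.032 for Mup3. What sets the signs apart was not tested. The edgeR log2 fold changes of Mup7, Mup11 and Mup21 were 1.72, 0.31 and 0.18, with adjusted p-values of 0.707, 0.907 and 0.961.

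Without M1T1, 1.26% of 13374 genes passed in edgeR, 0.419% higher and 0.837% lower in mouse 2, and 0 of the 6 members did. At an unadjusted p under 0.05 there were 2676 genes, among them 2 of the 6 members, Mup20 and Mup7. Mup20 then had a log2 fold change of -2.60 (SE 0.59), with an edgeR adjusted p of 0.0910. The level of M1T2 and M1T3 was on average 8.34 times that of mouse 2 for Mup20, 3.81 times for all other Mup genes summed, 2.14 times for Plau and 0.704 times for Mup3. DESeq2 on the same 5 tumors called 2 of the 6 members, against 10.2% of all genes (5.85% higher and 4.39% lower in mouse 2): Mup20 (log2 fold change -2.60, adjusted p = 9.49e-05) and Mup7 (5.39, adjusted p = 4.47e-05). In edgeR the adjusted p of Mup7 was 0.0663 (log2 fold change 5.29, SE 1.02), and its value rests on 2.30 and 2.18 estimated counts in M1T2 and M1T3. Plau gave -0.56 (SE 0.27, adjusted p = 0.318 in edgeR). These tests measure the spread between tumors, not between animals.

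**Figure D5:**
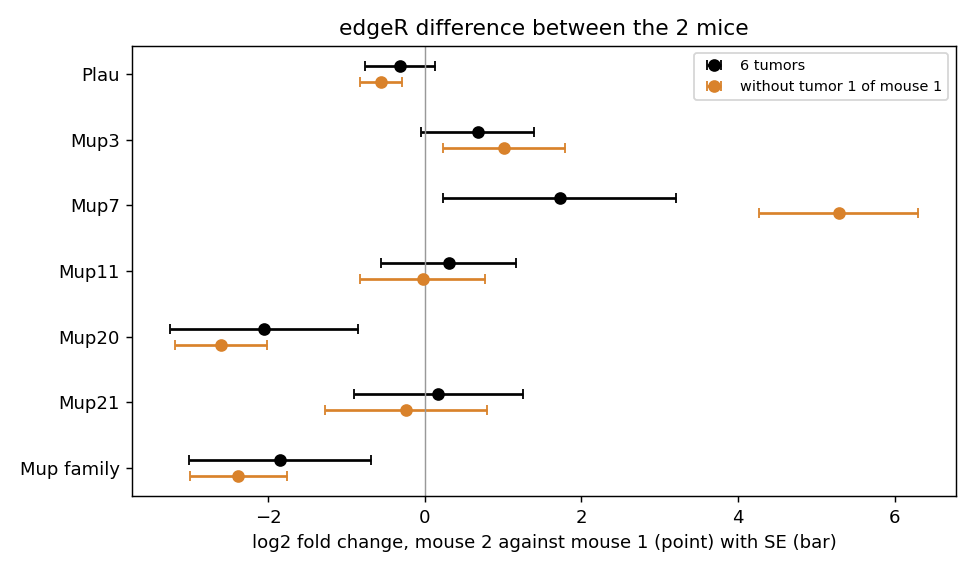
log2 fold change of mouse 2 against mouse 1 from edgeR (points) with its SE (bars) for the 6 tested members and the summed Mup row, with all 6 tumors (black) and without M1T1 (orange). Mup20 moves from -2.05 to -2.60 and Mup7 from 1.72 to 5.29, and Plau from -0.31 to -0.56.

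Of 17 other genes of the plasminogen system, 15 averaged 1 TPM or more. None of the 15 tested passed edgeR with 6 tumors (median log2 fold change 0.56, against -0.04 over all genes). Without M1T1 the median was 0.097, against 0.014 over all genes. In that fit 1 of the 15 passed, higher in mouse 2, as did 0.419% of all genes tested. The 1 that passed was S100a10, a partner of annexin A2 in binding plasminogen at the cell surface. It had 465 to 506 TPM in mouse 1 and 755 to 868 TPM in mouse 2 (log2 fold change 1.24, SE 0.17, adjusted p = 0.0429 in edgeR without that tumor, and 0.412 with it). Plg, which encodes plasminogen, the substrate of urokinase, had 14.0, 572 and 625 TPM in mouse 1 and 468, 357 and 485 TPM in mouse 2. Plg and Plau thus differed in M1T1, where Plg was lowest and Plau was close to its other values in that mouse. The other plasminogen activator, Plat, was above Plau in TPM in every tumor, though hardly so in M2T3, with 136, 37.6 and 38.5 TPM in mouse 1 and 48.1, 79.3 and 1.48 TPM in mouse 2. Plaur, the urokinase receptor, had 0.400 to 2.49 TPM. Vtn, which encodes the plasma protein vitronectin, and Serpinf2, the inhibitor of plasmin, averaged 841 and 215 TPM. St14, a membrane serine protease, had 85.4 TPM in M1T1 and at most 7.61 TPM in the others.

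All 20 genes chosen as regulators of Mup expression averaged 1 TPM or more, and 0 passed with 6 tumors (median log2 fold change 0.05). Without M1T1 the median was -0.13. In that fit 0.837% of all genes tested passed as lower in mouse 2, and among the regulators Bcl6 alone passed, lower in mouse 2. It encodes a transcriptional repressor that opposes STAT5 at many of its target genes. Bcl6 had 21.9, 23.1 and 21.9 TPM in mouse 1 and 4.19, 4.73 and 2.20 TPM in mouse 2 (log2 fold change -2.09, SE 0.24, adjusted p = 0.0320 in edgeR without that tumor, and 0.412 with it). Ghr, the growth hormone receptor, had 19.4 TPM in M1T1 and 206 to 294 TPM in the others, and Stat5b had 7.30 to 20.3 TPM. The hepatocyte transcription factors Hnf4a and Cebpa had 5.08 and 6.83 TPM in M1T1, and at least 99.6 and 79.7 TPM in every other tumor. Zhx2, which silences Afp after birth, had 28.4 TPM in M1T1 and 2.43 to 6.02 TPM elsewhere. Cux2, a regulator of female-biased liver genes, had 7.40 TPM in that tumor and at most 0.231 TPM elsewhere.

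Other sex-biased liver genes were also in view, since Mup expression is male-biased. Of 14 male-biased genes, 12 averaged 1 TPM or more and 0 of the 12 tested passed with 6 tumors (median log2 fold change 0.38). Cyp2d9, a male-biased cytochrome P450, had 34.2, 1473 and 1477 TPM in mouse 1 and 467, 1088 and 761 TPM in mouse 2, with M1T2 and M1T3 highest as for Mup20. Of 15 female-biased genes, 6 averaged 1 TPM or more and 0 of the 6 tested passed (median 1.01). Cyp2a4, a female-biased cytochrome P450, had 7.32, 704 and 691 TPM in mouse 1 and 48.6, 486 and 45.8 TPM in mouse 2. M1T2 and M1T3 were highest for it too, and for Alb, so this pattern was not particular to male-biased genes. Among 10 other lipocalins, the protein family of the Mups, 0 of the 8 tested passed (median 0.98). Rbp4, the retinol carrier of plasma, was the most abundant of them with 158 TPM in M1T1 and 3545 to 5638 TPM elsewhere, above Mup20 in the 3 tumors of mouse 2 and below it in the 3 of mouse 1. Without M1T1, none of the tested male-biased genes, female-biased genes or lipocalins passed in edgeR. Their median log2 fold changes were then -0.31, 0.50 and 0.42, so that of the male-biased genes changed sign.

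Among genes averaging 5 TPM or more, those with the tumor pattern most like that of Plau were Bscl2, Slain2, Usp30, Ptpn1 and Prep. Likeness was the mean absolute difference of centered log2(TPM + 1) over 6 tumors. Plau had 1.21 to 3.19 TPM and Bscl2, the nearest, 28.7 to 51.4 TPM. The added 1 narrows the range of Plau more than that of such genes, so likeness on this scale may not hold in TPM. The named genes lay at distances of 0.0491 to 0.0584 (median 0.450 over 8761 genes). Genes picked as the nearest lie below the median by that choice, here and for the Mup sum. For the summed Mup level the nearest gene was Serpina3k, a liver serine protease inhibitor, at a distance of 0.358. Next came Cyp2b9, which is on the female-biased list, and then Abcc12, Slc3a1 and C1qtnf1, at 0.617 to 0.691 (median 1.45 over 8752 genes). Serpina3k had 45.2, 578 and 566 TPM in mouse 1 and 24.0, 83.3 and 209 TPM in mouse 2, in the same order of high and low tumors as Mup20 except within mouse 2. The genes next to the Mup cluster that averaged 1 TPM or more were Snx30, at 1.14 to 2.41 TPM, and Zfp37, at 8.20 TPM in M1T1 and at most 0.701 TPM elsewhere. On either side of Plau, Camk2g and Vcl were highest in that same tumor, at 22.1 and 28.1 TPM, where Plau was not.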

How the data were processed

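Poly A mRNA libraries of 6 tumors were sequenced on an Illumina NovaSeq instrument. Per the file headers, the deposited tables are in the layout of Salmon and give estimated counts and TPM per transcript, made by the authors. The submitters' processing notes name BWA, Picard and GRCm38, and the index they quantified against is not stated. Of 116546 transcripts, 114813 were matched by identifier to genes of GENCODE vM39, and 1733 were not. Estimated counts and TPM were summed per gene, and counts were rounded. Genes were tested between the mice with edgeR 4.0.16 (filterByExpr, TMM, quasi-likelihood, two-sided, Benjamini-Hochberg over all genes tested), which was tested on simulated data. The SE is the log2 fold change divided by the root of F. DESeq2 1.42.0 and limma-voom 3.58.1 were alternatives, as were other scalings, no filter, a block on tumor number and leaving out each tumor. The pseudocount for log2(TPM + 1) was 1. All Mup rows were replaced by 1 summed row for the family test. Word shares and coding identity use GENCODE vM39 sequences of the transcripts in the tables, and 48 of 78 transcripts compared have the same length there. Promoters are RefSeq's (GRCm38.p6), and Plau, Mup1, Mup5 and Mup20 had no entry. Members and gene lists were chosen with earlier results of these data known. Named genes were the members, the other Mup genes with at least 1 count, up to 6 genes per list (the 4 highest in mean TPM and the 2 with the smallest p), called list genes, the 5 genes most like Plau and the Mup sum, and the neighbours of both loci. Plat, Plaur, Stat5b and Zhx2 were named after their values were seen. Tumor numbers were taken from the labels. The labels name the molecule as total RNA and the protocol as poly A enriched.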

Additional observations from a re-analysis of the deposited data

How the results depend on the processing

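The signs of the fitted fold changes of Plau, Mup20, Mup3, Mup7 and the summed Mup row were the same in every count fit tried, but Mup3 has the opposite sign in log2(TPM + 1) (-0.34). Leaving out 1 tumor gave log2 fold changes of -0.56 to -0.15 for Plau, -2.38 to -1.40 for the summed Mup row, and 0 to 168 called genes, the 168 without tumor 1 of mouse 1. DESeq2 called 202 genes with 6 tumors. In fits without tumor 1 of mouse 1, chosen after seeing the data, DESeq2 called 1369, limma-voom 477 and scaling by library size alone 151 genes; DESeq2 called 2 members and gave the summed Mup row -2.38 (adjusted p = 0.00104), against 0.117 in edgeR and 0.0944 to 0.125 by library size and limma-voom. Scaling by library size alone moved the median log2 fold change of all genes from -0.04 to -0.55, Plau from -0.31 to -0.75 (-0.82 without tumor 1 of mouse 1), Mup3 from 0.68 to 0.032 and Mup7 from 1.72 to 0.84. Mup11 and Mup21 passed no test and changed sign. Leaving out 1 tumor gave 0.11 to 1.18 for Mup3, 1.20 to 5.29 for Mup7, -0.30 to 0.80 for Mup11 and -1.75 to 0.66 for Mup21. Mup11 (0.31) became -0.066 by library size, -0.02 without tumor 1 of mouse 1 (-0.030, -0.45 and -0.26 by DESeq2, limma-voom and library size) and -0.30 without tumor 2 of mouse 2; Mup21 (0.18) became -0.45 by limma-voom, -0.30 by library size, -0.40 with the block, -0.24 without tumor 1 of mouse 1 (-0.22, -1.21 and -0.60 by DESeq2, limma-voom and library size) and -1.75 without tumor 3 of mouse 2. The cause was not tested. Tumors with the same number did not deviate together (correlations 0.0252, -0.0431 and 0.0494 over genes), so the numbers only name tumors; with tumor number as a replicate block, 0 genes were called, Plau gave -0.27 and the summed Mup row -1.41. The mean share of Mup20 was 73.2 to 78.3% when 1 tumor was left out, and 77.2% by counts. At 52 to 144 reads per tumor, counting error limits the precision of Plau, and its log2 range moved from 0.92 to 1.33 with a pseudocount of 0.1.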
